A study of Mus musculus with 4 samples.

Results

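The 90 cadherin and protocadherin genes described here are the protein-coding genes of the mouse RefSeq annotation whose symbols are Cdh followed by a number or begin with Pcdh, except Cdh1 and Cdh2. They are 90 of 21887 protein-coding genes on chromosomes, and 57 of them form the alpha, beta and gamma protocadherin clusters of chromosome 18. CUT&RUN, in which an antibody directs a nuclease to a chromatin protein so that the DNA around it is released and sequenced, had mapped the homeodomain factor OTX2. The values are 4 lists of bound regions, named by the stages that share them: primitive streak (PS) only, PS and definitive endoderm (DE), DE only, and EPI and PS, where EPI is not spelled out in the labels. No list is named for EPI alone, for EPI and DE, or for EPI, PS and DE together. Regions of those kinds are therefore missing from every count and rate below, which do not give all OTX2 binding at a gene. Each region went to a single protein-coding gene: the shortest gene that contains the region's midpoint or, for regions between genes, the gene whose end is closest, up to 100 kb away.

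Epiblast stem cells (EpiSCs) were the starting point, kept with Activin A at 20 ng/ml, with FGF2 at 12.5 ng/ml and with NVP at 175 nM. PS cells had 16 h in 40 ng/ml Activin A with 3 uM CHIR, an activator of WNT signalling, and DE cells then had Activin A at 100 ng/ml with 100 nM LDN, a BMP receptor inhibitor, for 24 h and were sorted live with DAPI. The 4 libraries described here are all PS libraries of a BL6/129 hybrid background whose lines are named OTX2-dTAG-EGFP: 3 with an antibody against the HA tag on OTX2, from lines 7H, 7H1 and 7H2, and 1 with IgG from 7H2. Each library held 500000 cells, and the labels do not say how the lines relate to each other. None of the 4 libraries is of DE or EPI cells, so antibody, replicates and depth behind those stages are not known here. The DE only list held 31445 regions, against 6157 for PS and DE, 1634 for PS only and 379 for EPI and PS. Whether depth or peak calling differed between stages was not tested. The lists carry no height and no value per library, so no spread between libraries can be given. The labelled stage could not be checked against marker genes, and the tests below compare regions at genes and not biological replicates.

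Cadherins are membrane proteins that join neighbouring cells by calcium-dependent binding of their extracellular repeats. The classical type I and type II cadherins bind like molecules on the next cell and anchor the actin skeleton through catenins. Protocadherins lack the catenin-binding tail. The delta protocadherins are single genes, while the alpha and gamma clusters join many alternative first exons to shared last exons, a system best known for giving neurons individual surface identities. When epiblast cells pass through the primitive streak, they exchange one set of cadherins for another and so change their contacts.

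The promoters of 3 delta-2 protocadherin genes, a group of single genes with roles in cell movement and neural wiring, were each covered by a DE only region. They are printed because they are the places where OTX2 regions met a known gene start in this family. Sequences are from RefSeq (GRCm38.p6), run 5′ to 3′ on the strand of the gene, from 250 bases before the start to 50 after it. Capitals mark the bases inside the OTX2 region.
Pcdh8, chr14:79771263-79771562, minus strand: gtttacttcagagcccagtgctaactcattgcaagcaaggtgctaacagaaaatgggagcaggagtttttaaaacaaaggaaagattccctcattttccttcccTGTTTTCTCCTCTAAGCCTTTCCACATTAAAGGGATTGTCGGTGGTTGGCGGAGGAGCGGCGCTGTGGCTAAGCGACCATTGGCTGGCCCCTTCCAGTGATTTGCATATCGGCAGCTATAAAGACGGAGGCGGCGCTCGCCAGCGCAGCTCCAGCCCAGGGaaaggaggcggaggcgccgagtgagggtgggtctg
Pcdh10, chr3:45378148-45378447, plus strand: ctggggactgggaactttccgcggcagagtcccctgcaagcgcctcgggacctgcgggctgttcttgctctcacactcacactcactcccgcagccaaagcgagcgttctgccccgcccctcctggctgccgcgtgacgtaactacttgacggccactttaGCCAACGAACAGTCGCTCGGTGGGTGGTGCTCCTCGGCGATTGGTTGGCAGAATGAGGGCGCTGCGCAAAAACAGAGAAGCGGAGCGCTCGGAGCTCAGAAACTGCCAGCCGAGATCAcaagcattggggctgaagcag
Pcdh17, chr14:84443313-84443612, plus strand: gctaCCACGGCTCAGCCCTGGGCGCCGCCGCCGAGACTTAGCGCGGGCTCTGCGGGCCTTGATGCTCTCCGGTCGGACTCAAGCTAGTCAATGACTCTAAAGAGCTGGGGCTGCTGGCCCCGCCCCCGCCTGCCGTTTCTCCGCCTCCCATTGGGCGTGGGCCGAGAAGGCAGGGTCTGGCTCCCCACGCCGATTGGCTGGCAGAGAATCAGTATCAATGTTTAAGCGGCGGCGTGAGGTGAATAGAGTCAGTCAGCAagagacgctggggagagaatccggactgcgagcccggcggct

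The Pcdh8 region (chr14:79771298-79771458, 161 bp) covered 161 bases of its window, the Pcdh10 region (chr3:45378309-45378426, 118 bp) 118 bases, and the Pcdh17 region (chr14:84443317-84443570, 254 bp) 254 bases. In each case the region covers the annotated start. The Pcdh10 and Pcdh17 windows also overlap promoter windows of other genes on the opposite strand, so these regions cannot be given to one start alone. The promoter table held an entry for 22 of the 90 genes, and 3 of those 22 had a promoter that any region touched, against 18.4% of the 17492 protein-coding genes in the table. GC content was 54.3% at Pcdh8, 62.3% at Pcdh10 and 65% at Pcdh17, with 14, 24 and 26 CG dinucleotides. Over all promoter windows that a region touched, the medians were 61.3% and 21, and over all windows 52.7% and 7.

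The letters TAATCC, a word bound by OTX2, were searched on both strands (GGATTA on the other) and stood in none of the 3 windows. They stood in 7.06% of all 32851 promoter windows, in 7.32% of the 4018 windows touched by a region and in 2 of the 25 windows of cadherin genes, those of Cdh7 and Cdh26, which no region touched. The 3 sequences share another word, noticed on reading them. ATTGGNTGG, searched on both strands, which contains ATTGG, the reverse of the CCAAT box of many promoters, begins 68 bases before the start of Pcdh8, 50 before that of Pcdh10 and 58 before that of Pcdh17, inside the OTX2 region each time. It stood in 1.98% of all windows, 3.61% of windows touched by a region and 5 of the 25 windows of cadherin genes, the others being those of Pcdh18 and Cdh18. ATTGG or CCAAT alone stood in 37.4% of all windows and in 17 of the 25.

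In all, 163 regions lay at these genes: 120 DE only, 31 PS and DE, 12 PS only and 0 EPI and PS, where 2.61 EPI and PS regions were expected from length. DE only regions made up 73.6% of the 163 (95% Wilson interval 66.4 to 79.8), against 79.4% of the regions at all genes. PS and DE regions made up 19.0% (13.7 to 25.7) against 15.6%, and PS only regions 7.36% (4.26 to 12.4) against 4.12%. At least 1 DE only region was found at 33 of the 90 genes, against 50.1% of all protein-coding genes. For PS and DE the count was 17 genes, against a background of 16.3%, for PS only 10 genes against 5.6%, and for EPI and PS 0 genes against 1.45%. The 33 genes with a DE only region are exactly the 33 that lie outside the clusters, and 52 of the 57 clustered genes had no region of any list. The genes differ widely in length: the 22 beta genes own 0.0756 Mb in all, while Cdh12, Cdh13 and Pcdh15 span over 1 Mb each.

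For values per length, each gene's territory was taken as all positions that the assignment rule would give to it, and the count expected at the mean rate was the list's assigned regions times the gene's share of all territory. The 90 genes own 14.9 Mb. They held 8.08 DE only regions per Mb (95% Poisson interval 6.7 to 9.66), where all genes held 14.4. PS and DE regions stood at 2.09 per Mb (1.42 to 2.96) against 2.82, and PS only regions at 0.808 (0.417 to 1.41) against 0.747. Intervals cover counting error only, and no test was run on the family as a whole. Within the family the 8 genes with the most regions held 95 of the 163, and the bars of regions per gene fall from 20 at Cdh4 to 1 at 9 genes outside the clusters.

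**Figure D1:**
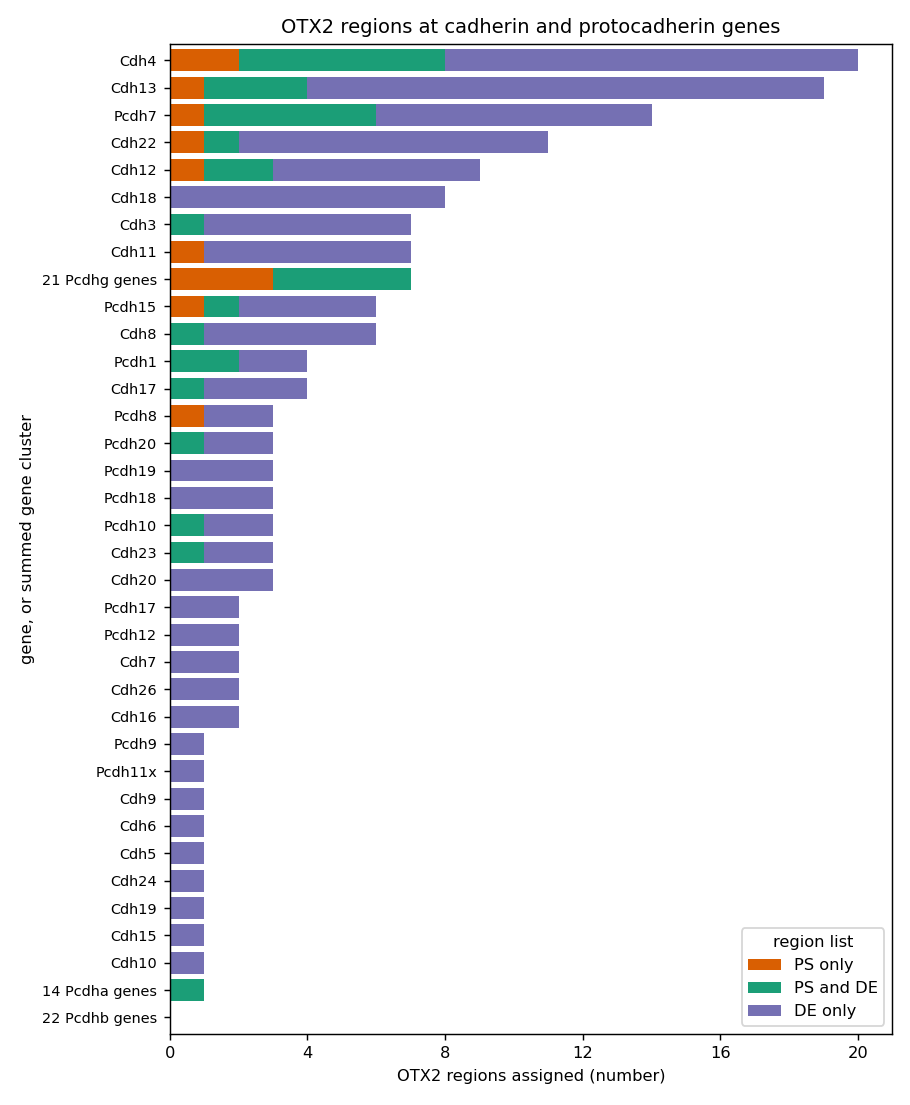
Number of OTX2 regions assigned to each cadherin or protocadherin gene (horizontal axis), coloured by region list, with the alpha, beta and gamma clusters summed. Cdh4 and Cdh13 are longest with 20 and 19 regions, and the gamma cluster is the tallest entry with no DE only segment.

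Type I cadherins held more regions per Mb than the mean over all genes. Cdh4, R-cadherin of retina, brain and kidney, carried 2 PS only, 6 PS and DE and 12 DE only regions, and all 20 lay inside its span (chromosome 2, 179442423 to 179899377). Its PS and DE count compares with 1.34 expected and its DE only count with 6.85. The exact binomial test of each gene's count against its territory, adjusted by Benjamini-Hochberg over 21880 genes, gave 0.362 for PS and DE and 0.641 for DE only, so neither passed 0.05. The first of the 20 regions lay 92.9 kb into the gene (PS and DE, chr2:179535288-179535407), and 2 DE only regions lay near its other end, at 452 and 453 kb.

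Cdh3, P-cadherin of placenta and epithelia, held 6 DE only regions against 1.6 expected (adjusted exact binomial p = 0.237) and 1 PS and DE region. Of its 7 regions 2 lay inside the gene. A DE only region of 155 bp (chr8:106510755-106510909) crosses the lower end of the gene, another lies 2.96 kb outside that end, 2 lie 7.79 and 8.11 kb inside, and 2 lie just beyond the upper end, 1.74 and 2.15 kb outside. The PS and DE region, 218 bp wide, lies 18 kb outside. Cdh15, M-cadherin of muscle, had 1 DE only region, 13.2 kb away. Summed over the 3 type I genes, DE only regions stood at 30.2 per Mb (18.2 to 47.1) and PS and DE regions at 11.1 per Mb (4.47 to 22.9), each interval above the all-gene rates of 14.4 and 2.82. Cdh4 alone held 12 of these 19 DE only regions and 6 of the 7 PS and DE regions. No type I gene passed its own test, and the intervals, which cover counting error only, are too narrow where regions cluster.

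Type II cadherins held fewer regions per Mb than the mean over all genes. The 13 genes held 45 DE only regions, 7.69 per Mb (5.61 to 10.3), and 4 PS and DE regions, 0.683 per Mb (0.186 to 1.75). The DE only rate was lower still at delta-1 protocadherins (4.52 per Mb), tip-link cadherins (2.9) and clustered protocadherins (0). The type II territory of 5.85 Mb includes the long territories of Cdh12 (1350 kb), Cdh18 (1130 kb) and Cdh8 (593 kb), and the rate was not split by length. Cdh22, a cadherin of brain and pituitary, held the most regions of the group, 9 DE only regions against 2.36 expected (adjusted exact binomial p = 0.0793), 1 PS and DE region and 1 PS only region. At 19.1 kb from its start on the gene's strand, the PS only region (chr2:165215587-165215685) and a DE only region (chr2:165215737-165215807) lay 51 bp apart. Without regions within 1 kb of gene ends, or with assignment within 1 Mb, Cdh22 passed (adjusted exact binomial p = 0.042 and 0.0141). It did not pass within 50 kb (0.11), with regions merged (0.181), by nearest gene end (0.124) or at its own chromosome's rate (0.11). Only 1 of its 9 DE only regions remained at or above the median width of the list, or at 150 bp or more (adjusted exact binomial p = 1 in both).

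Cdh11, a mesenchymal cadherin of bone-forming cells, held 6 DE only regions against 5.08 expected and 1 PS only region. Within 20 kb, inside the gene, 6 of these 7 lay together, from 64.8 to 76.4 kb from its lower end, of which the PS only region (chr8:102708498-102708579) had the highest coordinate. Groups of at least 6 regions within 20 kb occurred at 2 of the 38 family members with any region, Cdh11 and Cdh13, and at 0.927% of the 11973 genes with any region. That cutoff is the largest group size seen in the family. Groups of at least 4 occurred at 15.8% of these members and 7.57% of these genes, and groups of at least 2 at 50% and 46.7%. The shares take no account of gene length or region number. Cdh8, a cadherin of neural circuits, held 5 DE only and 1 PS and DE region, with 8.54 DE only expected (adjusted exact binomial p = 1).

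**Figure D2:**
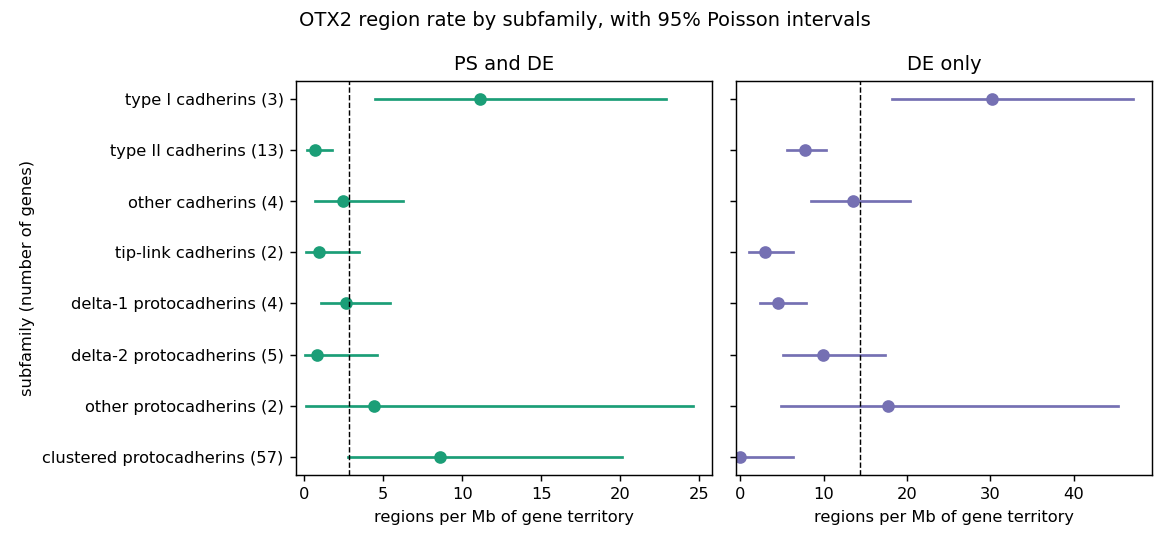
Regions per Mb of gene territory for PS and DE (left) and DE only (right), by subfamily, with the number of genes in brackets. Points are rates, bars 95% Poisson intervals, dashed lines the all-gene rates of 2.82 and 14.4. The type I intervals lie to the right of the lines and those of type II to the left. The DE only intervals of tip-link cadherins, delta-1 protocadherins and clustered protocadherins also lie to the left.

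Cdh12 and Cdh18, brain cadherins on chromosome 15, span 1150 and 929 kb. Cdh12 held 6 DE only regions where 19.4 were expected (adjusted exact binomial p = 0.0832), 2 PS and DE and 1 PS only. Its deficit passed the test with assignment within 50 kb (adjusted exact binomial p = 0.0218), within 1 Mb (0.00347) and at the rate of its own chromosome (0.0372). It did not pass at the rate of territories of at least 500 kb, where 12.8 were expected (adjusted exact binomial p = 0.182), with regions merged (0.147), without gene-end regions (0.273), by nearest gene end (0.882) or with either width minimum (0.529 and 1). By nearest gene end 5.97 were expected at Cdh12 and from 150 bp 6.39, too few for even 0 regions to pass. Cdh18 held 8 DE only regions, all inside the gene, against 16.2 expected (adjusted exact binomial p = 0.599), and 0 of the other lists. The other 8 type II genes had 1 to 3 DE only regions each: 3 at Cdh20, 2 at Cdh7 and 1 each at Cdh5 (VE-cadherin of endothelium), Cdh6, Cdh9, Cdh10, Cdh19 and Cdh24.

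Cdh13, T-cadherin, which is held by a lipid anchor and has no cytoplasmic tail, had 15 DE only, 3 PS and DE and 1 PS only region. The DE only count lay near the 18.6 expected for its territory of 1290 kb (adjusted exact binomial p = 1). These regions were uneven along the gene. Below the gene's midpoint lay 18 of the 19, from 47.2 kb outside the lower end to 375 kb into the span, and the remaining DE only region lay 887 kb in (chr8:119027335-119027442). The PS only region (chr8:118365191-118365300) sat between DE only regions 267 bp on one side and 515 bp on the other, in a group of 6 regions within 20 kb.

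**Figure D3:**
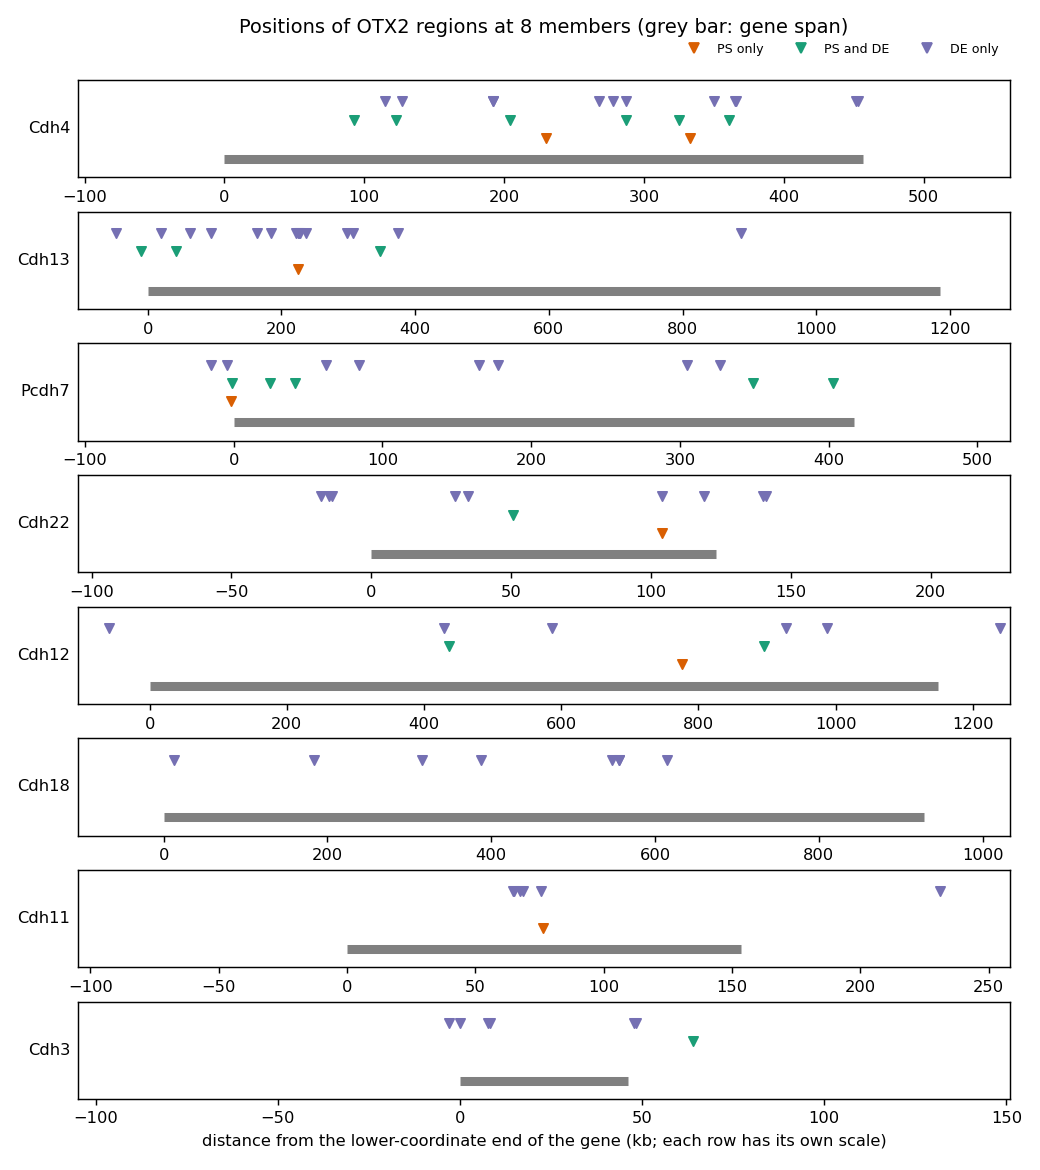
Midpoints of OTX2 regions along the 8 genes with the most regions, as kb from the lower-coordinate end of each gene, with the gene span in grey and triangles coloured by list. The Cdh13 regions stop at 375 kb apart from 1 at 887 kb, while those of Cdh4 run from 92.9 to 453 kb.

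The other non-classical cadherins had few regions in short territories. Cdh17, LI-cadherin of intestinal epithelium, held 3 DE only and 1 PS and DE region, the latter 314 bp wide and 36.8 kb outside the gene (chr4:11854528-11854841). Cdh16, the kidney cadherin, held 2 DE only regions against 0.371 expected (adjusted exact binomial p = 0.636), both inside the gene, and Cdh26 held 2, both outside.

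The tip-link cadherins are Cdh23 and Pcdh15, whose proteins pair to form the filaments that open the channels of inner-ear hair cells. The DE only count of Pcdh15 passed the test as low, and that of Cdh23 did not pass. Pcdh15, with the longest span in the family (1550 kb on chromosome 10, 73096277 to 74649831), held 4 DE only regions where 25.2 were expected, 0.159 of the expectation (adjusted exact binomial p = 0.000533). It also held 1 PS only region and 1 PS and DE region, the latter 3.89 kb outside the lower end (chr10:73092352-73092415). Cdh23 held 2 DE only and 1 PS and DE region, with 4.58 DE only expected (adjusted exact binomial p = 1).

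Low DE only counts that passed the test were found at 3 family members, Pcdh15, Pcdh9 and Pcdh11x, against 0.155% of all genes tested. High counts passed at 0 members, against 0.512%. Of the 8 members with an unadjusted exact p under 0.05, 5 of the 90 were low, against 1.02% of all genes, and 3 high (Cdh3, Cdh22 and Pcdh12), against 7.05%. All 34 genes called low over the whole genome had a territory of at least 500 kb, which is 9.69% of the 351 genes of that length, and 8 family members are that long. Shorter territories could not be called low. Even 0 DE only regions against 8.35 expected, at the protocadherin clusters as 1 locus, did not pass (adjusted exact binomial p = 0.0544). The 0.155% thus includes many genes that could not pass as low. Regions are sparser in such territories in general. Over the 351 genes the median ratio of observed to expected DE only regions was 0.589, and 75.2% held fewer than expected. For the 8 family members the median was 0.401, and all 8 held fewer than expected.

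**Figure D4:**
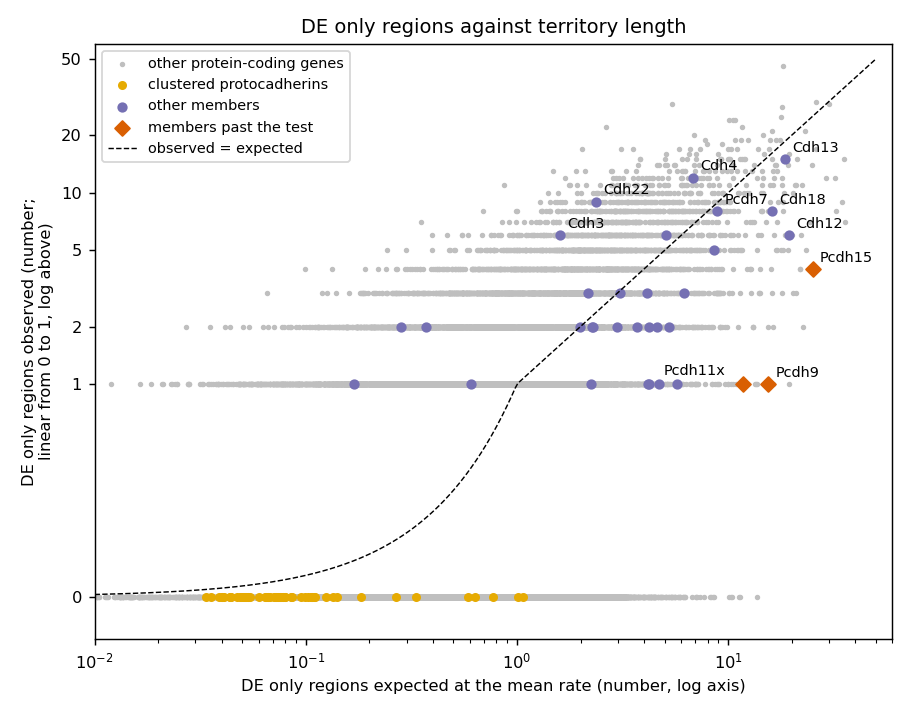
DE only regions observed at each gene (vertical axis, linear up to 1 and logarithmic above) against the number expected from territory length (logarithmic axis). The dashed line marks equality, and Pcdh15, Pcdh9 and Pcdh11x, the members that passed as low, lie below it with 4, 1 and 1 regions.

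Delta-1 protocadherins held 12 DE only regions at 4 genes, 4.52 per Mb (2.34 to 7.9), and 8 of them lay at Pcdh7. Pcdh9, a neural gene of 879 kb, held 1 DE only region (chr14:93499164-93499337, 174 bp) where 15.5 were expected (adjusted exact binomial p = 0.00402), and 0 of the other lists. Pcdh11x, on the X chromosome, held 1 where 11.8 were expected (adjusted exact binomial p = 0.0361). DE only regions were rarer on the whole X, at 5.16 per Mb against 15.3 on the autosomes, and at the rate of its own chromosome Pcdh11x had 4.23 expected (adjusted exact binomial p = 0.926). At that rate Pcdh15 (adjusted exact binomial p = 0.000662) and Pcdh9 (0.00609) still passed, and at the rate of genes with territories of at least 500 kb all 3 passed (0.00909, 0.0112 and 0.0365 for Pcdh15, Pcdh9 and Pcdh11x). Over all genes, 36 of 21880 passed as low at the own-chromosome rates. At the long-territory rate 31 of the 351 long genes passed as low and 68 in either direction. The calls of Pcdh15, Pcdh9 and Pcdh11x were all lost where regions went to the nearest gene end, or where regions under 150 bp or under their list's median width were left out. By nearest gene end 5.97, 5.97 and 4.65 were expected, and even 0 regions did not pass at Pcdh9 (adjusted exact binomial p = 0.291) and Pcdh11x (0.462). From 150 bp, Pcdh15 held 0 against 8.31 expected (adjusted exact binomial p = 0.168). Neither of these settings could thus call the genes low. Pcdh11x also lost its call within 50 kb (0.0568), with regions merged (0.0614) and without gene-end regions (0.111).

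Pcdh7, whose protein is widely made in embryos and binds a protein phosphatase, held 8 DE only regions against 8.88 expected, 5 PS and DE against 1.74 (adjusted exact binomial p = 1) and 1 PS only. Outside its lower end lay a PS only region at 2.05 kb (chr5:57714051-57714140) and, 656 bp from it, a PS and DE region at 1.23 kb (chr5:57714797-57715043). Pcdh1, an epithelial protocadherin of airway, held 2 PS and DE and 2 DE only regions. The widest PS and DE region of the family, 353 bp, lay 11.2 kb outside it, 944 bp from a DE only region.

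Delta-2 protocadherins held 12 DE only regions at 5 genes, 9.93 per Mb (5.13 to 17.3), with 1 PS only and 1 PS and DE region. Pcdh8, known as paraxial protocadherin and expressed in mesoderm leaving the streak, had regions at 3 places. Upstream of its DE only region at the promoter printed above lay a PS only region (chr14:79773453-79773684), the widest PS only region of the family at 232 bp. Another DE only region lay 619 bp beyond it, 3.06 kb from the gene. Pcdh10 had the same kind of layout, with its promoter region, a PS and DE region 2.46 kb upstream (chr3:45375901-45375981) and a DE only region 3.02 kb upstream. Pcdh17 had its promoter region and 1 DE only region 27.8 kb outside.

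Pcdh18 held 3 DE only regions, all outside its short span, at 9.22 to 44.1 kb, and Pcdh19, an X-linked gene, held 3, all inside. Of the other single protocadherins, Pcdh12, an endothelial gene, held 2 DE only regions against 0.281 expected (adjusted exact binomial p = 0.523), and Pcdh20 held 2 DE only regions and 1 PS and DE region 65.3 kb away. For the 22 genes in the promoter table, an annotated start was within 5 kb of 10 of 69 DE only regions, 2 of 13 PS and DE regions and 2 of 5 PS only regions.

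The clustered protocadherins held 3 PS only and 5 PS and DE regions and 0 DE only regions. At the mean rates their summed territory of 0.581 Mb would hold 0.434, 1.64 and 8.35. All 3 PS only regions and 4 of the 5 PS and DE regions lay in the last 35.5 kb of the gamma cluster (chromosome 18, 37661775 to 37841873), where the spans of 18 to 21 of the 21 gamma genes overlap. They can therefore not be given to single gamma genes, although the rule places 4 at Pcdhgc5 and 1 each at Pcdhgc3, Pcdhgc4 and Pcdhga12. The counts at the clusters also depend on giving overlaps to the shortest gene. With overlaps given to the longest gene, the family held 9 PS only and 26 PS and DE regions. Those are the counts of its members outside the clusters, so the clusters then held 0.

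Along the gamma cluster, the PS and DE region at chr18:37806321-37806403 ends 6 bp before the lower end of Pcdhgc3. A PS and DE region (chr18:37814402-37814474) and a PS only region (chr18:37815320-37815406) lie on either side of the lower end of Pcdhgc4, 604 and 241 bp from it. Farther in, a PS and DE region (chr18:37824930-37824991) and a PS only region (chr18:37826308-37826440) lie 1316 bp apart. The last pair, PS only (chr18:37835638-37835735) and PS and DE (chr18:37836388-37836506), lies 652 bp apart, 6.19 and 5.43 kb before the shared end. Each of the 3 PS only regions thus had a PS and DE neighbour 652 to 1316 bp away.

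**Figure D5:**
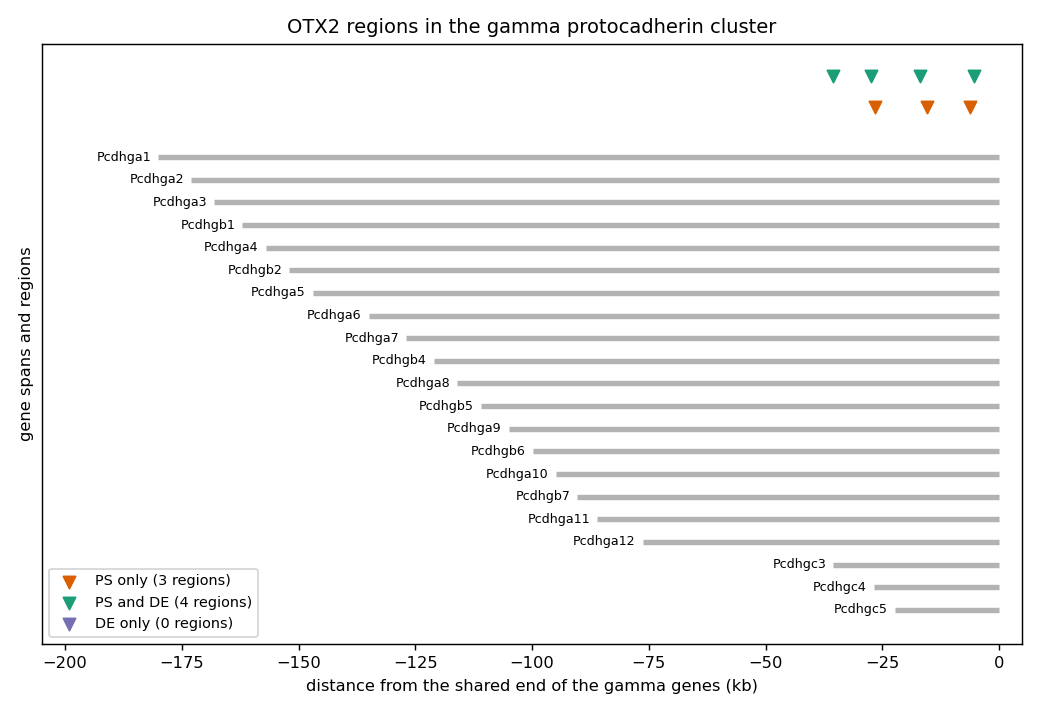
The 21 gamma protocadherin gene spans (grey) and the OTX2 regions over them, as kb from their shared upper end. All 3 PS only and 4 PS and DE regions fall within 35.5 kb of that end, and no DE only region is present.

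The alpha cluster held a single PS and DE region of 16 bp, 34.9 kb into Pcdhac2 (chr18:37178576-37178591). Over all assigned regions the narrowest DE only region had 62 bp and the narrowest PS and DE region 2 bp. The beta cluster, of 22 intronless genes with 0.0756 Mb of territory, held 0 regions. From the lower end of the alpha to the upper end of the gamma cluster, 912 kb, a single DE only region was listed (chr18:37649668-37649742). It lies 12.1 kb below the gamma genes and went to Gm38667, a gene model of 868 kb that begins within the alpha cluster and ends with the gamma cluster. With the clusters counted as 1 locus, an alternative run after seeing the data, the 0 DE only regions did not pass (adjusted exact binomial p = 0.0544, 21824 genes). The 5 PS and DE against 0 DE only regions did not pass either (Fisher's exact p = 0.000118, adjusted 0.4). A count of 0 is the lowest possible, and 5 against 0 is the most uneven split of 5 regions. Neither test could thus have passed in that direction, so neither can decide whether DE only regions are depleted at the clusters.

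Whether a gene took unequal shares of the PS and DE and DE only lists was asked for each gene with a region of either. By Fisher's exact test, adjusted over 11688 genes, 0 of the 37 family members tested passed, against 0% of all genes. Unadjusted p-values under 0.05 occurred at 2 of the 37, Pcdhgc5 and Pcdh7, and at 222 genes in all, which is 1.9%. High PS and DE counts passed the binomial test at 0 members, against 0.174% of all genes, and 4 of the 90 members (Cdh4, Pcdh7, Pcdhgc3 and Pcdhgc5) were high at an unadjusted p under 0.05, against 3.46% of all genes. High PS only counts passed at 0 members and 0% of genes, with an unadjusted p under 0.05 at 2 of 90 members, Pcdhgc4 and Pcdhgc5, against 2.23% of all genes. No difference between lists was thus detectable gene by gene at these small counts.

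Within the family, regions lay inside genes in 68.1% of cases (111 of 163, 95% Wilson interval 60.6 to 74.8), against 53.9% of all assigned regions. Midpoints within 1 kb of a gene end made up 7.36% against 15.2%. Neither share was split by gene length. Median widths were 98.5 bp for PS only, 116 bp for PS and DE and 115.5 bp for DE only, where all assigned regions had 114, 121 and 118 bp. A DE only region lay within 1 kb of 4 of the 12 PS only regions (33.3%, 13.8 to 60.9), at Cdh11, Cdh13, Cdh22 and Pcdh8, against 7.64% of all assigned PS only regions. For PS and DE regions the count was 3 of 31 (9.68%, 3.35 to 24.9), at Cdh4, Pcdh1 and Pcdh10, against 14.3%.

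Other genes of cadherin adhesion gave a comparison. Cdh2 (N-cadherin) held 11 DE only and 6 PS and DE regions, and Cdh1 (E-cadherin) 7 and 3, with 6.05 and 1.39 DE only regions expected (adjusted exact binomial p = 0.657 and 0.0682). Of 13 catenin and plakophilin genes, which link cadherins to the skeleton, 11 had a region of any list, against 54.7% of all genes. Among these 13 genes 1 passed, as low, against 0.155% of all genes: Ctnna3, with 4 DE only regions against 21.9 (adjusted exact binomial p = 0.00497). Its territory is over 500 kb, and of the genes with territories of at least that length 9.69% passed as low. Those with the most regions were Ctnna2 with 9, Ctnnd2 with 8, Pkp4 with 7, and Ctnna3 and Ctnnd1 with 5 each. The next 10 genes were the giant and seven-pass cadherins, which act in planar polarity, and their modulator Fjx1, which is not a cadherin. Among them 1 passed, as high, against 0.512% of all genes: Celsr1, with 11 DE only regions against 2.13 (adjusted exact binomial p = 0.00695). It was ahead of Fat3 with 7 regions, Fat1 with 5 and Dchs2 with 4.

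Desmosomal cadherins, of stratified epithelia and heart, had regions at 3 of 9 genes, namely 3 at Dsc2 and 1 each at Dsg1a and Dsg4, and 0 passed. Cadherin-related genes had regions at 5 of 9 with 0 passing, led by Clstn2 with 7, Cdhr3 with 3 and Cdhr1 with 2. Nectins and junction linkers had regions at 7 of 8 with 0 passing, led by Nectin1 with 13 (12 DE only against 3.89, adjusted exact binomial p = 0.076), Actn1 with 6, Vcl with 4 and Nectin3 with 3.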

How the data were processed

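The deposited files are 4 lists of chromosome, start and end without header or height. Per the submitters' processing notes the build was mm10, and the tools were MACS2 2.2.6, Bowtie2 2.3.5.1, bedtools 2.30, Picard 2.26.10 and SAMtools 1.14. Neither the peak threshold nor the use of IgG nor any pooling is given in the sources used here. Depth per library is unknown. Coordinates are given counted from 1. An unplaced scaffold with 2 DE only regions was not used. Genes and promoter sequences came from RefSeq tables of GRCm38.p6, the same assembly. The gene table has no strand, exons, introns or UTRs, and starts were known only for genes in the promoter table. The 7 genes whose territory was 0 were not tested.

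Each gene's count was compared with its territory by a two-sided exact binomial test, and its PS and DE and DE only counts with those of all other genes by a two-sided Fisher's exact test (Python 3.11.15, scipy 1.17.1), with Benjamini-Hochberg adjustment and a threshold of 0.05. Both tests treat regions as independent, so p-values are too small where regions cluster. Both were tested on simulated data, with regions drawn independently and strong effects planted. Those simulations cannot show how the tests behave where regions cluster. Genes named are members with a PS only, PS and DE or EPI and PS region, with 5 or more DE only regions, or past a test, and the up to 4 genes with most regions per comparison list. The remaining members outside the clusters fall outside this rule and are named so that every member with a region is accounted for, with details chosen after their values were seen. The members and lists were chosen with earlier results of these data known. Subfamilies follow textbook classes. The rates by own chromosome and by territories of at least 500 kb, the tests of the clusters as 1 locus and the word ATTGGNTGG were chosen after seeing the data.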

Additional observations from a re-analysis of the deposited data

How the results depend on the processing

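Under 12 other settings, 170 of 205 recomputed values counted as unchanged, and 0 reversed. Unchanged meant within 1.5 times for counts and on the same side of the threshold for p-values. For the share inside genes it meant within the Wilson interval, and for the median width within the standard deviation of widths. Many of the 170 are counts of 0 that stayed 0, such as those of EPI and PS regions and of list share calls. Others are p-values that passed in no setting, such as those of Cdh3 and Cdh4. An unchanged count can also hide a change of genes. With overlaps given to the longest gene, the family lost all regions of the protocadherin clusters, although its counts stayed within 1.5 times. Without gene-end regions 3 members still passed for DE only, but they were Pcdh15 and Pcdh9 as low and Cdh22 as high. With assignment within 1 Mb the family held 182 DE only regions and 15 genes passed the test of DE only number, 14 of them low. Nearest gene ends left 7 PS only regions, and 0 genes passed for DE only. Keeping only regions no narrower than the median of their list left 3 PS only regions at 3 genes, 13 PS and DE at 9 genes, and 56 DE only, with 0 genes past the test. Regions of at least 150 bp left 1 PS only region at 1 gene, 10 PS and DE at 8 genes, and 41 DE only at 20 genes, again with 0 past the test. Over all genes, 146 passed for DE only in the reported setting, 581 within 1 Mb, 75 by nearest end, 86 with regions merged, 33 from the median width and 20 from 150 bp. The width settings hold fewer regions by construction, and assignment to the nearest gene end caps the territory of long genes. Both lower the expected counts, so a low call lost there cannot tell whether a deficit changed. Leaving out a library was not possible, since no value per library was used. No paired analysis was possible because the lists carry no value per replicate.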
